A study of Mus musculus with 24 samples.

Results

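Newborn mouse liver was compared between a human and a mouse form of the constitutive androstane receptor (CAR), each with its own ligand, across 12 of the series' 24 RNA sequencing libraries. The measure was the response difference of each gene, taken as the change with CITCO in hCAR-TG mice minus the change with TCPOBOP in wild type mice, on the log2(FPKM + 1) scale. FPKM is a count of sequenced fragments adjusted for transcript length and library size. Of 24339 genes in the files, 12282 were tested, those reaching 1 FPKM in 3 or more of 24 libraries.

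The 12 libraries fall into 4 groups of 3 replicates, all from liver of C57BL/6 mice at postnatal day 5. Wild type pups received corn oil, the vehicle, or TCPOBOP, a potent agonist of mouse CAR. Pups carrying a human CAR knock-in (hCAR-TG) received corn oil or CITCO, an agonist of human CAR. Receptor and ligand therefore always changed together, and the contribution of each cannot be told apart. The labels give neither dose nor schedule. They also do not say whether the 3 replicates of a group were separate animals, so p-values measure only the spread between libraries. The remaining 12 libraries are the same 4 treatments at day 60 and serve here as a comparison. They also enter the filter and the estimate of spread per gene on which the newborn p-values rest.

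CAR, encoded by Nr1i3, is a nuclear receptor of hepatocytes that is held in the cytoplasm, moves to the nucleus when activated, pairs with RXR and switches on enzymes and transporters that clear drugs, bilirubin and steroids. Human and mouse CAR bind different ligands: TCPOBOP acts on the mouse receptor and CITCO on the human one. Cyp2b10, a P450 gene, is the usual readout of CAR in mouse liver, and PXR, encoded by Nr1i2, is a related receptor with many shared targets.

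Reads of mouse Nr1i3 were counted in every library. They gave 68.6, 61.6 and 43.8 FPKM in the wild type corn oil libraries (replicates 1 to 3, the order used throughout) and 13.5, 17.9 and 15.6 with TCPOBOP. In hCAR-TG they gave 18.7, 20.4 and 27.7 with corn oil and 28.6, 33.97 and 33.4 with CITCO. The hCAR-TG corn oil values lay below all wild type corn oil values (log2 difference -1.34 ± 0.18, ± SE, limma adjusted p = 4.4e-05). Which part of the mouse gene remains in the knock-in, and how many reads of the human gene would be counted on it, is not given in the sources used here, so this level checks the genotype only loosely. With ligand, the Nr1i3 value fell in wild type (-1.81 ± 0.18) and was 0.52 ± 0.18 in hCAR-TG (limma adjusted p = 0.0538).

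The libraries carried liver RNA. The 15 hepatocyte markers, led by the albumin gene Alb, summed to 101020 to 140623 FPKM. In wild type the sum was 129389 to 140623 with corn oil and 101020 to 107591 with TCPOBOP. In hCAR-TG it was 118588 to 133246 with corn oil and 108835 to 113418 with CITCO. Each ligand group thus lay below its vehicle group without overlap. Per library the FPKM values of all genes summed to 451546 to 502499, and the number of reads behind them is unknown, so no counting interval can be given. Replicate 3 of the hCAR-TG corn oil group stood apart: its values deviated from its group mean by 0.26 (root mean square on the log2 scale) against 0.1072 to 0.1797 in the 11 other newborn libraries. All 3 hCAR-TG corn oil libraries held transcripts of the intestine. Fabp6, the bile acid binding protein of the ileum, was listed at 1.12, 1.53 and 1.96 FPKM there and at 0 in the 9 other newborn libraries. Lypd8, a protein of the colon lining, was at 6.28, 10.8 and 16.4 FPKM there and at most 1.13 elsewhere. Of 32 measured intestinal markers 20 passed the filter, which the 3 hCAR-TG corn oil libraries alone can meet. A marker passing only there falls with CITCO by selection. The counts of 17 lower response differences (median -1.86) and 16 falls with CITCO were therefore partly fixed by the filter. No result is read from them beyond the levels in the hCAR-TG corn oil libraries. Summed erythroid markers were also higher there (14019.9 to 17392 FPKM) than in the other groups (5853 to 11224). The neutrophil sum spanned 1282 to 1621 FPKM in that group and 745 to 1302 in the CITCO group, which overlap slightly, and 357 to 917 in the wild type groups. Acinar transcripts of the pancreas reached a summed 383, 517 and 490 FPKM in replicate 2 of wild type corn oil, replicate 2 of TCPOBOP and replicate 1 of CITCO, against at most 51.1 in the 9 other libraries, and 0 of 24 tested pancreatic markers were called. These are called the 3 acinar libraries here. The part of these transcripts in the results was not tested. Where a count below moves by over 1.5 times without 1 library, or without the 3 acinar libraries together (chosen after seeing the data), values without them stand beside many of these counts.

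**Figure D1:**
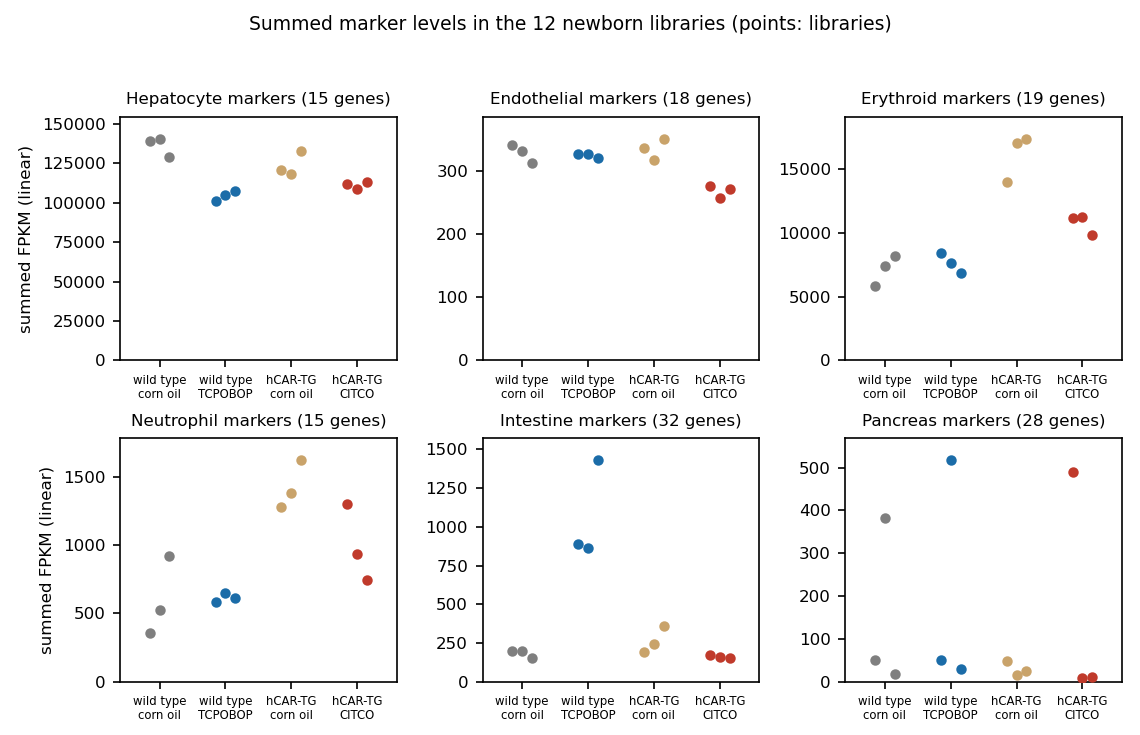
Summed FPKM (linear axis from 0) of 6 marker lists in the 12 newborn libraries, 1 point per library. Erythroid sums are highest in the 3 hCAR-TG corn oil libraries, the intestinal sum is highest with TCPOBOP, where Apoa4 alone gives 759, 739 and 1275 FPKM, and 3 libraries of 3 groups stand out in pancreatic transcripts.

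The response difference was called in 4142 of 12282 genes (33.7%; limma, adjusted p under 0.05). It was called lower in 2729 (22.2%), meaning that the gene rose less or fell more with CITCO than with TCPOBOP, and called higher in 1413 (11.5%). By at least 2-fold, 301 genes were lower (2.45%) and 77 higher (0.627%). The median over all tested genes was -0.05. Without replicate 3 of the hCAR-TG corn oil group 3858 genes were called, 2603 lower and 1255 higher, and 3391 genes were called in the same direction both with and without it. The lowest count without any 1 library was 3351 and the highest 4624. With the 12 newborn libraries fitted alone 3020 genes were called, 2157 lower and 863 higher. Without the 3 acinar libraries, which leaves 2 libraries in each of 3 groups, 2532 genes were called, 1807 lower and 725 higher, and 2437 of the original calls kept their direction and call.

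Most of the genes with a lower response difference were called with TCPOBOP and not with CITCO. TCPOBOP changed 4408 genes (35.9%), 3022 up (24.6%) and 1386 down (11.3%). CITCO changed 2099 (17.1%), 1016 up (8.27%) and 1083 down (8.82%). The CITCO count was 1147 without replicate 3 of CITCO, 1182 without replicate 2, 596 with the compared libraries fitted alone and 5259 with array weights. Between the corn oil groups 1297 genes differed (10.6%), 1018 higher (8.29%) and 279 lower (2.27%) in hCAR-TG. Rising genes made up 68.6% of the TCPOBOP calls as deposited and 57.4% after libraries were rescaled by the median of ratios, so that balance rests on the scaling. For CITCO the split was 867 up and 1342 down after rescaling (39.2% rising against 48.4%). Among the 2729 lower genes, 1667 rose with TCPOBOP and were not called with CITCO, 384 fell with CITCO alone, 245 rose with TCPOBOP and fell with CITCO, and 159 rose with both. Another 270 were called in neither response and 4 fell with both. Among the 1413 higher genes, 605 fell with TCPOBOP and were not called with CITCO, 311 rose with CITCO alone and 102 fell with TCPOBOP and rose with CITCO. In the remainder 53 fell with both, 15 rose with both and 327 were called in neither response.

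The strongest responses overlapped unequally. The 309 genes that TCPOBOP raised at least 2-fold (2.52% of those tested) had a median TCPOBOP change of 1.38. With CITCO their median change was 0.25, 134 of them (43.4%) rose, 12 fell and 163 were not called. Read the other way, the 70 genes raised at least 2-fold by CITCO (0.57%) had medians of 1.37 with CITCO and 1.90 with TCPOBOP, and 58 of them (82.9%) rose with TCPOBOP. Of the 82 genes lowered at least 2-fold by TCPOBOP (0.668%), 36 (43.9%) fell with CITCO. Of the 46 lowered at least 2-fold by CITCO (0.375%), 7 (15.2%) fell with TCPOBOP. These 46 include the intestinal genes of the hCAR-TG corn oil libraries. Over all tested genes 8.27% rose and 8.82% fell with CITCO, and 24.6% rose and 11.3% fell with TCPOBOP. The 15.2% is close to its share over all genes. The 2 responses share no library.

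**Figure D2:**
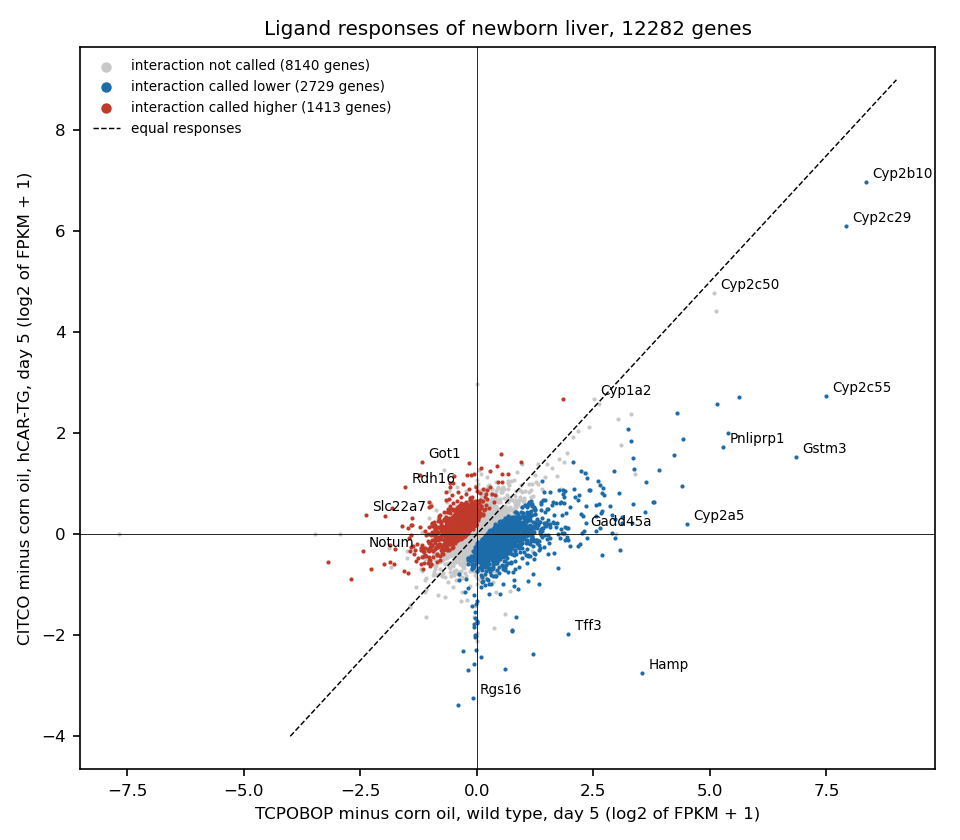
Change with TCPOBOP in wild type (horizontal) against change with CITCO in hCAR-TG (vertical), both log2 of FPKM + 1, 1 point per tested gene, coloured by the call of the response difference. Most blue points lie to the right with small vertical values, the drug-metabolism genes run along the dashed line of equal responses or below it, and the grey points far left are small nucleolar and micro RNA entries that were not called.

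Receptor genes were called about as often as all genes. Of 23 genes for CAR, PXR and their partners, 4 were called higher and 4 lower (2 lower without the 3 acinar libraries). Nr1i2 differed by 0.07 ± 0.16 (limma adjusted p = 0.749). The higher ones were Nr1i3 itself (2.33 ± 0.26, limma adjusted p = 1.57e-06), the hepatocyte transcription factor gene Cebpa (0.84 ± 0.17), the coactivator gene Ppargc1a (0.70 ± 0.20) and Dnajc7, which encodes the co-chaperone that holds CAR in the cytoplasm (0.41 ± 0.11). Among the lower ones, the chaperone gene Hsp90ab1 stood at 239.8, 231 and 235 FPKM with corn oil and 361, 335 and 383 with TCPOBOP in wild type, and at 316, 285 and 253 and 258, 247 and 243 FPKM with corn oil and CITCO in hCAR-TG. It rose in wild type by 0.61 ± 0.07 and was -0.19 ± 0.07 in hCAR-TG. Nr0b2, which encodes the repressor SHP, was at -0.94 ± 0.31, and Nr5a2, a nuclear receptor of bile acid synthesis, at -0.49 ± 0.12.

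Of 3 tested Cyp2b genes, the classical targets of CAR, 2 rose with both ligands and less with CITCO. Cyp2b10 was at 3.30, 5.57 and 3.92 FPKM with corn oil and 1636, 1788 and 1658 with TCPOBOP in wild type. In hCAR-TG it was at 5.22, 1.22 and 1.98 FPKM with corn oil and 413, 426 and 467 with CITCO. Each ligand group lay far above its vehicle group, and every TCPOBOP library lay above every CITCO library. The rise was 8.35 ± 0.26 with TCPOBOP and 6.98 ± 0.26 with CITCO, a response difference of -1.37 ± 0.36 (limma adjusted p = 0.00749). Its size depends on low vehicle values. It was -0.95 without replicate 1 of hCAR-TG corn oil and -1.69 without replicate 2. Its close relative Cyp2b13 rose from 15.4, 13.8 and 17.9 to 81.4, 91.8 and 89.9 FPKM with TCPOBOP and from 17.97, 16.7 and 13.6 to 29.7, 29.2 and 32.2 with CITCO (-1.53 ± 0.27), while Cyp2b9 differed by 0.16 ± 0.82 (limma adjusted p = 0.893). Reads of close relatives in the Cyp2b, Cyp2c, Cyp3a, Cyp2a, Gstm, Gsta, Ugt1a and Sult2a families can be divided between copies, so the values of single members are uncertain.

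In the Cyp2c family, whose members oxidize drugs and fatty acids, 7 of 14 tested genes were called lower and 0 higher (median -0.70). The members differed widely. Cyp2c55 went from 1.48, 2.27 and 1.24 to 483, 442 and 495 FPKM with TCPOBOP, and from 2.80, 3.95 and 4.99 to 30.95, 27.98 and 34.7 FPKM with CITCO. Its CITCO values lay above both vehicle groups and below every TCPOBOP value, and the response difference of -4.76 ± 0.23 (limma adjusted p = 1.67e-11) was among the 15 most negative of all named genes. Cyp2c29 reached 6382, 6397 and 6531 FPKM with TCPOBOP and 348, 389 and 492 with CITCO. Its vehicle levels also differed, at 40.1, 39.1 and 10.4 FPKM in wild type and 6.19, 2.13 and 8.28 in hCAR-TG, so the difference of -1.82 ± 0.55 between responses was smaller than the difference of -3.99 ± 0.39 between the induced levels. Cyp2c39 (-2.23 ± 0.15) and the pseudogene Cyp2c53-ps (-3.39 ± 0.12) were also lower. By contrast Cyp2c50 rose by 5.08 ± 0.41 with TCPOBOP and 4.77 ± 0.41 with CITCO, a difference of -0.31 ± 0.57 that was not called (limma adjusted p = 0.707), and Cyp2c54 and Cyp2c37 were not called either (-0.72 ± 0.53 and -0.75 ± 0.43). The count of lower Cyp2c genes was 11 without replicate 2 of the hCAR-TG corn oil group and 6 without replicate 3.

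Of 8 Cyp3a genes, 6 were called lower. Cyp3a11, the main drug-oxidizing CYP3A of mouse liver, was already abundant in vehicle pups, at 337, 331 and 437 FPKM in wild type and 379, 344 and 271 in hCAR-TG. It reached 3536, 3299.7 and 3650.3 FPKM with TCPOBOP and 1331, 1377 and 1505 with CITCO, with no overlap between the ligand groups (-1.16 ± 0.16, limma adjusted p = 1.78e-05). Cyp3a13 differed more (-1.80 ± 0.18). Cyp3a16, the isoform typical of fetal and neonatal liver, differed by -0.16 ± 0.22 (limma adjusted p = 0.591).

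Cyp2a5, a coumarin hydroxylase, differed strongly between the ligands. It rose from 7.11, 9.64 and 5.86 to 174, 179.6 and 219 FPKM with TCPOBOP (4.51 ± 0.22). The hCAR-TG values were 10.5, 11.7 and 14.5 FPKM with corn oil and 12.5, 13.4 and 16.9 with CITCO (0.21 ± 0.22, limma adjusted p = 0.538), and those ranges overlap. The response difference was -4.30 ± 0.31 (limma adjusted p = 6.85e-09), and its near-identical neighbour Cyp2a4 gave -3.10 ± 0.37. In the list of Cyp2a and other Cyp2 genes, 9 of 21 were lower, among them Cyp2f2 (-1.35 ± 0.23) and Cyp2a12 (-1.04 ± 0.14), and 1 was higher, the arachidonic acid oxidase gene Cyp2j9 (0.92 ± 0.22).

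The Cyp1 genes, classical targets of the aryl hydrocarbon receptor, were called higher or were not called. Cyp1a2, a caffeine-oxidizing P450 of hepatocytes, was at 48.6, 56.2 and 77.3 FPKM in wild type and 65.9, 62.3 and 51.7 FPKM in hCAR-TG with corn oil. It reached 321, 378 and 341 with TCPOBOP and 383, 384 and 399 with CITCO. The rises of 2.52 ± 0.12 and 2.68 ± 0.12 differed by 0.16 ± 0.17 (limma adjusted p = 0.473, 95% interval -0.19 to 0.51). Cyp1a1, an inducible enzyme of low abundance here, was at 0.585, 0.610 and 0.629 FPKM with TCPOBOP and 2.35, 2.35 and 2.28 with CITCO, against at most 0.164 in both vehicle groups, a response difference of 1.09 ± 0.08 (limma adjusted p = 6.84e-09). Of the newborn libraries only those with CITCO reached the 1 FPKM of the filter. At such levels the 1 added before the log shrinks changes, so no more is read from Cyp1a1 than its levels. The 2 of 6 genes of this list called higher were Cyp1a1 and Tiparp (0.52 ± 0.16), which encodes a feedback repressor of the receptor. The Tiparp call was lost without replicate 2 of TCPOBOP (log2 value 0.44, limma adjusted p = 0.054) and without the 3 acinar libraries.

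Of 17 genes of heme synthesis and electron supply for the P450s, 7 were lower, 1 higher and 9 not called. Por, which encodes the reductase that passes electrons to all microsomal P450s, stood at 113, 106 and 98.5 FPKM with corn oil and 424, 503 and 449.6 with TCPOBOP in wild type. In hCAR-TG it stood at 107, 87.6 and 149.9 with corn oil and 179, 190.3 and 196 with CITCO (-1.36 ± 0.21, limma adjusted p = 8.6e-05). Alas1, the rate-limiting enzyme of heme synthesis, rose by 3.09 ± 0.44 and 1.76 ± 0.44, and the difference of -1.33 ± 0.63 was not called (limma adjusted p = 0.11). The higher one was the heme enzyme gene Cpox (0.87 ± 0.11). Of 14 Cyp4 fatty acid hydroxylases 4 were lower, near the share of 22.2% over all genes, and the list median was 0.017. Cyp4f15 led the lower ones (-1.04 ± 0.13), while the PPARa targets Cyp4a10 (1.37 ± 0.52, limma adjusted p = 0.0523) and Cyp4a14 (1.37 ± 0.79, limma adjusted p = 0.193) were not called.

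**Figure D3:**
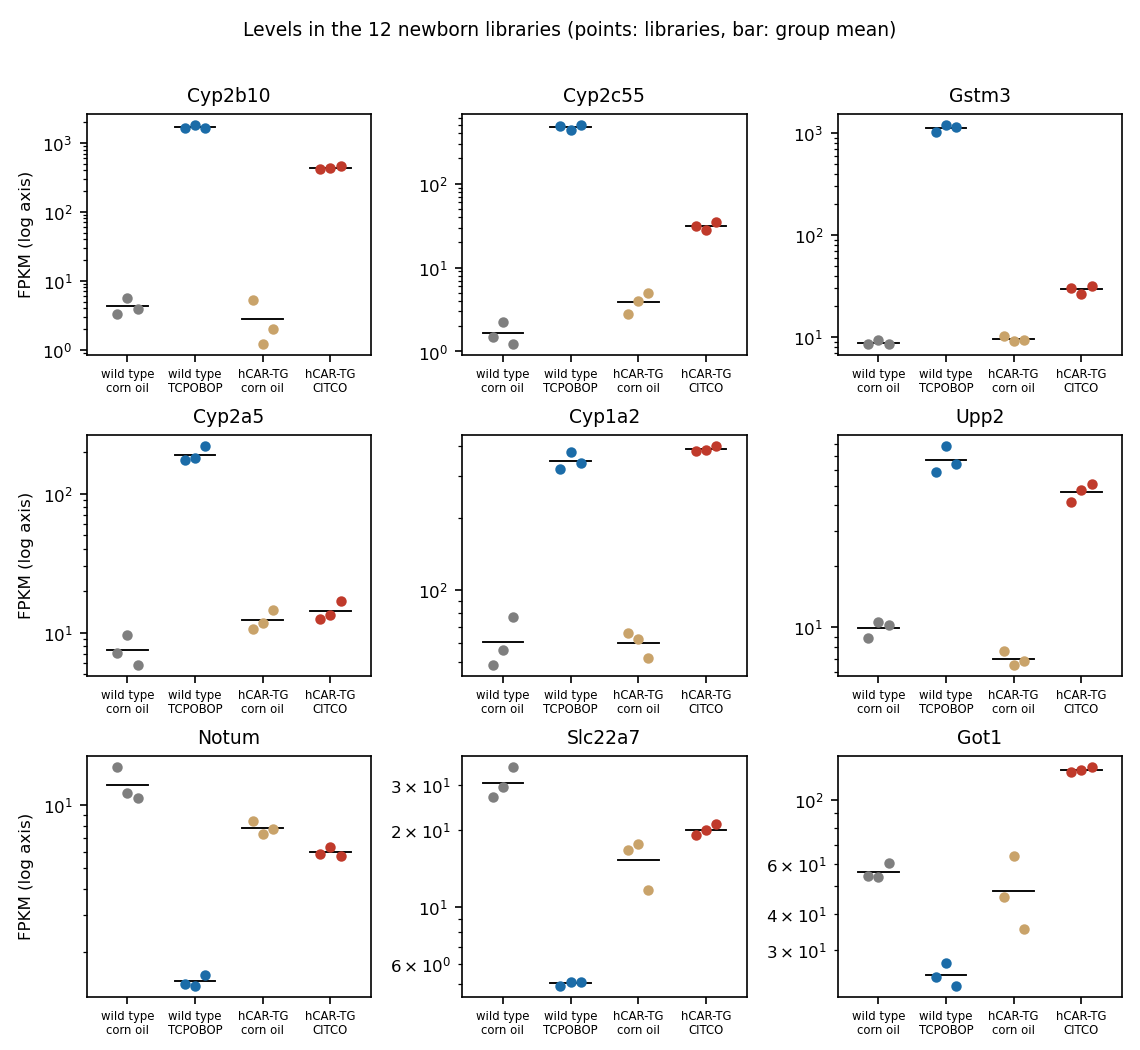
FPKM on a log axis in each newborn library (points) with the group mean (bar) for 9 genes. Cyp2b10, Cyp2c55 and Gstm3 rise with both ligands but more with TCPOBOP, Cyp2a5 rises with TCPOBOP, Cyp1a2 and Upp2 reach like levels, Notum and Slc22a7 are low with TCPOBOP, and Got1 is low with TCPOBOP and high with CITCO.

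Glutathione S-transferases attach glutathione to reactive products of oxidation. Of 23 tested, 17 were called lower and 0 higher (median -0.93 against -0.05 over all genes), and 18 rose with TCPOBOP against 6 with CITCO. Gstm3 was at 8.56, 9.23 and 8.60 FPKM in wild type and 10.3, 9.03 and 9.29 in hCAR-TG with corn oil. With ligand it reached 1033, 1187 and 1158 FPKM for TCPOBOP and 30.3, 26.1 and 31.9 for CITCO, a response difference of -5.32 ± 0.20 (limma adjusted p = 1.85e-13). Gstm1, the abundant mu class enzyme, reached 1638, 1873 and 1839.9 FPKM with TCPOBOP and 340.1, 350.3 and 392 with CITCO from vehicle levels of 156, 139 and 136 and 169, 156 and 203 (-2.58 ± 0.15). Gsta1 (-3.44 ± 0.26), Gstt3 (-2.58 ± 0.37) and Gstm2 (-2.32 ± 0.18) were lower too. An exception was the alpha class gene Gsta2, whose rises of 1.93 ± 0.25 and 1.61 ± 0.25 differed by -0.32 ± 0.35 (limma adjusted p = 0.5).

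Genes of sugar and sulfate conjugation were called in both directions. Of 19 genes for glucuronidation and its cofactor, 7 were lower and 3 higher. Ugt2a3 (-1.44 ± 0.10), Ugt2b36 (-1.24 ± 0.13), Ugt2b34 (-1.16 ± 0.21) and Ugt1a1, the enzyme that conjugates bilirubin (-0.97 ± 0.15), were lower. Ugt3a2, which uses N-acetylglucosamine, was higher (1.58 ± 0.17). It fell with both, with changes of -2.27 ± 0.12 for TCPOBOP and -0.69 ± 0.12 for CITCO (limma adjusted p = 0.000608). Among 17 sulfotransferase and sulfate donor genes 3 were lower, including Sult5a1 (-2.01 ± 0.24) and Sult1c2 (-1.16 ± 0.16), and 2 were higher. Both counts are near the shares over all genes (22.2% lower and 11.5% higher). The estrogen sulfotransferase gene Sult1e1, the remaining lower one (-0.85 ± 0.31), lost its call in 11 of the 12 fits that left out 1 library. The higher sulfotransferase genes were those for bile acids: Sult2a5 was at 36.9, 33.98 and 36.5 FPKM with corn oil and 125, 135 and 134 with TCPOBOP in wild type, and at 15.3, 13.4 and 9.65 with corn oil and 82.1, 82.5 and 94.7 with CITCO in hCAR-TG. Its ligand levels were higher with TCPOBOP while its rise was larger with CITCO (0.84 ± 0.14, limma adjusted p = 0.000184), and the hCAR-TG vehicle level was lower (-1.44 ± 0.10). Sult2a8 was the other (1.11 ± 0.24).

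Hydrolases and reductases leaned towards TCPOBOP. Of 17 carboxylesterase genes, 11 were lower and 0 higher, or 6 and 1 without the 3 acinar libraries. Ces2a, which cleaves ester drugs, reached 1315, 1386 and 1548 FPKM with TCPOBOP and 182, 164 and 203 with CITCO from 74.7, 77.7 and 71.5 and 54.7, 49.97 and 82.1 with corn oil (-2.66 ± 0.17, limma adjusted p = 8.11e-10). Ces2c (-2.23 ± 0.23) and Ces2b (-1.81 ± 0.28) were lower as well. Ces1g, an esterase of lipid export, reached 108, 129 and 119.9 and 112, 120.3 and 128 FPKM, which overlap, and differed by -0.13 ± 0.22 (limma adjusted p = 0.674). Aldo-keto reductases counted 8 lower and 2 higher of 15, with Akr1b7 (-1.99 ± 0.29) lower and Akr1c18, a progesterone-inactivating enzyme, higher (1.32 ± 0.27). Aldehyde dehydrogenases counted 7 lower and 2 higher of 15, led by Aldh1a7 (-2.90 ± 0.24) and the retinoic acid forming Aldh1a1 (-1.90 ± 0.26). Without replicate 3 of the hCAR-TG corn oil group 4 were higher, and without the 3 acinar libraries 4 were lower. The microsomal epoxide hydrolase gene Ephx1 was at 391, 449 and 449 FPKM with TCPOBOP and 162, 164 and 179 with CITCO, from 69.9, 65.3 and 67.3 and 86.7, 74.03 and 95.2 (-1.67 ± 0.12), and 7 of 11 genes of its list, with Fmo5 (-1.55 ± 0.19) and Aox1 (-1.37 ± 0.12), were lower.

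**Figure D4:**
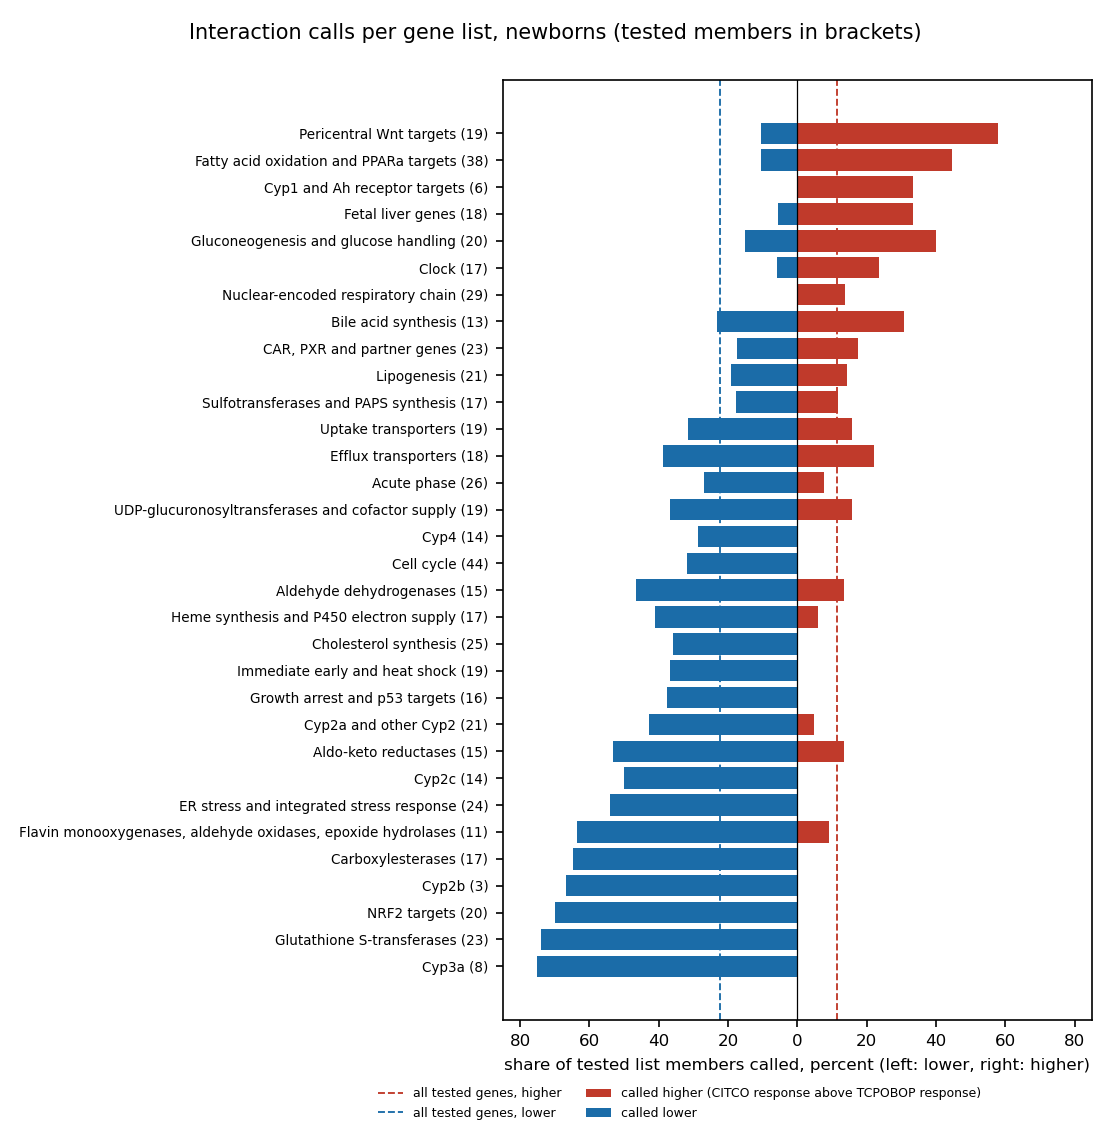
Share of the tested members of 32 gene lists in which the response difference was called lower (left, blue) or higher (right, red), in percent, with dashed lines at the shares over all 12282 tested genes (22.2% and 11.5%). Cyp3a genes, glutathione S-transferases, NRF2 targets, Cyp2b genes (2 of 3) and carboxylesterases extend furthest to the left and pericentral Wnt targets furthest to the right.

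The export pump genes Abcc4 and Abcc3 of the basolateral membrane responded more to TCPOBOP. Abcc4, which exports bile acids and drugs to blood, was at 18.7, 20.1 and 17.2 FPKM with TCPOBOP and 4.24, 4.17 and 4.70 with CITCO. Its vehicle values were 0.793, 0.981 and 0.883 FPKM in wild type and 1.25, 1.09 and 1.23 in hCAR-TG (-2.09 ± 0.11, limma adjusted p = 4.28e-11). Abcc3, which exports glucuronides, was at 138, 156 and 144 FPKM with TCPOBOP and 23.2, 28.3 and 30.1 with CITCO (-2.62 ± 0.17). At the bile canaliculus Abcc2 (-1.06 ± 0.09) and the bile salt pump gene Abcb11 (-0.71 ± 0.15) were lower, whereas the sterol exporter genes Abcg5 (0.85 ± 0.19) and Abcg8 (0.87 ± 0.22) were higher. Abcc5 and Abcc6 were not called (limma adjusted p = 0.0962 and 0.839). In total 7 of 18 efflux genes were lower and 4 higher.

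Among 19 uptake transporters 6 were lower (3 without the 3 acinar libraries) and 3 higher, against 22.2% and 11.5% over all genes. Slc22a7, which encodes the organic anion carrier OAT2, fell from 26.8, 29.4 and 35.1 to 4.93, 5.11 and 5.08 FPKM with TCPOBOP (-2.37 ± 0.14). In hCAR-TG it was at 16.7, 17.6 and 11.6 FPKM with corn oil and 19.1, 19.9 and 21.1 with CITCO (0.38 ± 0.14, limma adjusted p = 0.0646). The CITCO values lay above all vehicle values of that genotype and below all wild type vehicle values, and the response difference was 2.76 ± 0.20 (limma adjusted p = 3.42e-09). Slc22a3, an organic cation carrier, was also higher (0.84 ± 0.11).

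NRF2 is a transcription factor that is released from KEAP1 under oxidative stress and binds the antioxidant response element, with the core TGACNNNGC. The integrated stress response acts through ATF4 and CHOP on elements with the letters TGATGNAA. Promoter windows of 300 bases around gene starts (RefSeq, build GRCm38.p6) were searched on both strands for these letters. The first was present in 12.4% of 32851 windows. Shares of genes count a match in any window of the gene. By gene it was present in 16.9% of 9358 tested genes with a window and in 9 of 17 listed NRF2 targets with one (52.9%). It can hold an AP-1 site, TGACTCA. The second was present in 3.97% of all windows, in 2.77% of tested genes with a window and in 6 of 22 genes of the stress list (27.3%). Of the stress genes called lower, 2 of 11 with a window held it (18.2%). A match describes letters only. Windows of 100 bases upstream of the start are shown for 4 NRF2 targets and for Atf3, all called lower, on the strand of the gene, with capitals marking the match to either strand:
Gclm (chr3:122245377-122245476, + strand): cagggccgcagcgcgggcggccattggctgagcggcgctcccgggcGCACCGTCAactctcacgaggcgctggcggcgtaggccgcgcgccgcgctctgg
Prdx1 (chr4:116685420-116685519, + strand): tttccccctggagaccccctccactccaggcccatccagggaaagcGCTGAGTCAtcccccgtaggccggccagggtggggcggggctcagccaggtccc
G6pdx (chrX:74428884-74428983, - strand): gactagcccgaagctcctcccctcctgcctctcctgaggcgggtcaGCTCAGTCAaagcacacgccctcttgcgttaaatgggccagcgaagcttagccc
Ugdh (chr5:65435921-65436020, - strand): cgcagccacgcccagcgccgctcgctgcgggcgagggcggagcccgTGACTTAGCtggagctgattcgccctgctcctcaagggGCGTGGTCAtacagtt
Atf3 (chr1:191183390-191183489, - strand): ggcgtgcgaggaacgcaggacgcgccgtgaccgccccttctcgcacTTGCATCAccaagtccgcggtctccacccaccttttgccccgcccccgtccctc

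Of 20 tested NRF2 targets 14 were called lower and 0 higher (median -0.60). With TCPOBOP 15 rose and 0 fell, and with CITCO 7 rose and 2 fell. Gclm, the regulatory subunit of glutathione synthesis whose window holds the core, was at 49.4, 49.1 and 60.9 FPKM with corn oil and 72.4, 67.1 and 72.98 with TCPOBOP in wild type. In hCAR-TG it was at 61.8, 60.9 and 56.1 FPKM with corn oil and 55.02, 53.5 and 52.8 with CITCO (-0.56 ± 0.10, limma adjusted p = 0.000212). Genes of the pentose phosphate pathway, among them the NADPH-forming G6pdx (-0.62 ± 0.16) and Pgd (-0.67 ± 0.14) and the non-oxidative Tkt (-0.75 ± 0.11) and Taldo1 (-0.29 ± 0.11), were lower, as were the peroxide-reducing Prdx1 (-0.57 ± 0.09), the sulfiredoxin gene Srxn1 (-0.76 ± 0.12) and Ugdh, which makes the sugar donor for glucuronidation (-0.77 ± 0.13). Nqo1, the quinone reductase often used as an NRF2 readout, rose with both, by 1.62 ± 0.16 and 1.31 ± 0.16, and differed by -0.31 ± 0.22 (limma adjusted p = 0.29). Several of these genes are also listed under conjugation, so the lists are not independent. Of the glutathione S-transferases called lower, 2 of 15 with a window held the core (13.3%).

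In the list of endoplasmic reticulum stress and integrated stress response, 13 of 24 were lower and 0 higher. Trib3, a pseudokinase induced by ATF4, was at 2.26, 1.74 and 1.22 FPKM in wild type with corn oil and 16.7, 20.9 and 19.96 with TCPOBOP. It was at 1.17, 1.13 and 2.70 and 1.51, 1.76 and 1.62 FPKM with corn oil and CITCO in hCAR-TG, where the groups overlap (-2.86 ± 0.38, limma adjusted p = 1.97e-05). The chaperone genes of the endoplasmic reticulum Sdf2l1 (-1.30 ± 0.26), Manf (-1.22 ± 0.24) and Hyou1 (-1.20 ± 0.20) were lower, with 8 of 24 genes rising with TCPOBOP and 9 falling with CITCO. Atf3 differed by -0.98 ± 0.22 (limma adjusted p = 0.00252). The stress factor genes Atf4 (-0.25 ± 0.14) and Ddit3, which encodes CHOP (0.33 ± 0.18), were not called (limma adjusted p = 0.165 and 0.162). Immediate early and heat shock genes counted 7 lower of 19, with 8 falling under CITCO, and the transcription factor gene Jun was the most negative (-2.33 ± 0.47).

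Growth arrest genes behaved unevenly. Gadd45a, a stress-induced growth arrest gene, was at 23.5, 24.6 and 26.9 FPKM with TCPOBOP and between 3.90 and 6.32 FPKM in the 9 other newborn libraries (-2.23 ± 0.14, limma adjusted p = 7.65e-10). Gadd45b, a known partner and coactivator of CAR in mouse liver, was lower too (-1.44 ± 0.35), and so was the apoptosis gene Bax (-0.68 ± 0.11). Cdkn1a, which encodes p21, was at 0.98 ± 0.42 (limma adjusted p = 0.0781). Of 44 cell cycle genes 14 were lower and 0 higher, 18 rose with TCPOBOP and 0 with CITCO. Over all tested genes 22.2% were lower and 11.5% higher, 24.6% rose with TCPOBOP and 8.27% with CITCO. The largest were Cdc20, an activator of the anaphase-promoting complex (-1.05 ± 0.24), and Rrm2, a subunit of ribonucleotide reductase (-0.80 ± 0.22). The proliferation marker Mki67 was at 0.28 ± 0.35 (limma adjusted p = 0.57). The cell cycle count ranged from 10 to 27 lower when libraries were left out, with 27 without replicate 3 of wild type corn oil, and was 7 without the 3 acinar libraries. That last fit called 1807 of all tested genes lower, against 2729 in the full fit. The count of lower cell cycle genes thus depends on the libraries included.

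Genes of fatty acid breakdown were among the largest groups called higher. Of 38 genes of fatty acid oxidation and PPARa, 17 were higher and 4 lower (median 0.33). The TCPOBOP response held the larger part, with 22 falling and 3 rising, against 8 and 1 with CITCO. Cpt1a, which admits fatty acids to mitochondria, was at 149, 136 and 151 FPKM with corn oil and 92.7, 95.3 and 96.3 with TCPOBOP in wild type. It was at 129, 125 and 149 and 143, 145 and 138 FPKM with corn oil and CITCO in hCAR-TG, where the ranges overlap (0.69 ± 0.15, limma adjusted p = 0.00158). Ppara itself (0.83 ± 0.18), the peroxisomal enzyme gene Ehhadh (0.92 ± 0.18) and Angptl4, an inhibitor of lipoprotein lipase (1.16 ± 0.31), were higher. Of the 4 lower (2 without the 3 acinar libraries), Vnn1, a pantetheinase (-1.47 ± 0.29), and Fabp1, the liver fatty acid binding protein (-0.46 ± 0.13) are examples.

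Of 20 genes of gluconeogenesis and glucose handling 8 were higher and 3 lower. Fbp1, a key enzyme of gluconeogenesis, fell from 716, 743 and 916 to 409.7, 416 and 395 FPKM with TCPOBOP and was at 802, 834 and 816 with corn oil and 849, 855 and 840.5 with CITCO in hCAR-TG (1.003 ± 0.12, limma adjusted p = 4.05e-06). The glycogen-targeting subunit gene Ppp1r3c (1.70 ± 0.32) and the glucose transporter gene Slc2a2 (0.60 ± 0.14) were higher, and the glycogen enzymes Pgm1 (-1.06 ± 0.11) and Pygl (-0.98 ± 0.10) lower. Cholesterol synthesis counted 9 lower and 0 higher of 25, with 13 rising under TCPOBOP and 2 under CITCO. Among its lower members were the SREBP regulator gene Insig1 (-1.18 ± 0.23) and the squalene epoxidase gene Sqle (-1.05 ± 0.29). In bile acid synthesis 3 were lower and 4 higher of 13, against 22.2% and 11.5% over all genes. The higher count was 1 without the 3 acinar libraries and 2 without replicate 1 of wild type corn oil, replicate 1 or 2 of TCPOBOP or replicate 3 of CITCO. Cyp27a1, the sterol 27-hydroxylase, was at 54.2, 70.0 and 63.8 FPKM with TCPOBOP and 28.6, 31.3 and 32.2 with CITCO, from 18.7, 16.9 and 13.1 and 16.1, 14.2 and 19.4 with corn oil (-1.03 ± 0.16), and Cyp7a1, the rate-limiting enzyme of the classical route, was at 1.04 ± 0.73 (limma adjusted p = 0.281). Of the lipogenic genes 4 were lower and 3 higher of 21, near the shares over all genes, with the fatty acid elongase gene Elovl5 highest (1.67 ± 0.18).

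Pericentral genes that depend on Wnt signals carried the most positive median of the 32 pathway lists, 0.46, with 11 of 19 called higher and 2 lower. Here 14 fell with TCPOBOP and 7 with CITCO. Notum, a secreted inhibitor of Wnt ligands, was at 15.1, 11.4 and 10.9 FPKM with corn oil and 1.42, 1.38 and 1.56 with TCPOBOP in wild type. In hCAR-TG it was at 8.41, 7.25 and 7.69 FPKM with corn oil and 5.84, 6.33 and 5.73 with CITCO. Both ligand groups lay below their vehicle groups, with a change of -2.44 ± 0.09 for TCPOBOP and -0.33 ± 0.09 for CITCO (2.11 ± 0.13, limma adjusted p = 4.61e-10). Cldn2, a tight junction gene, fell from 27.01, 23.2 and 31.2 to 5.71, 6.29 and 6.30 FPKM with TCPOBOP and from 37.5, 38.5 and 35.1 to 23.9, 24.4 and 24.7 with CITCO (1.39 ± 0.15). The R-spondin receptor gene Lgr5 (0.52 ± 0.19), the Wnt receptor ligase genes Rnf43 (0.75 ± 0.17) and Znrf3 (0.34 ± 0.13), the pericentral factor gene Tbx3 (0.97 ± 0.27) and Gulo, which makes vitamin C (0.64 ± 0.09), were higher. Glul, the glutamine synthetase that marks the innermost pericentral layer, fell with both, with changes of -0.34 ± 0.08 and -0.48 ± 0.08 (-0.13 ± 0.11, limma adjusted p = 0.346). Against the list's direction stood Tnfrsf19, a Wnt-responsive receptor (-1.94 ± 0.16), and Cyp2e1, the ethanol-oxidizing P450 (-0.69 ± 0.15).

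Of 18 fetal liver genes 8 fell and 4 rose with TCPOBOP, and 8 fell and 4 rose with CITCO. The response difference was higher in 6 (3 without replicate 1 of wild type corn oil) and lower in 1. Afp, the fetal albumin relative, was at 3315, 4333 and 3685 FPKM with corn oil and 1619, 1943 and 1429 with TCPOBOP in wild type, and at 8353, 6618 and 9405 with corn oil and 5864, 5518 and 4685 with CITCO in hCAR-TG (0.59 ± 0.20, limma adjusted p = 0.0288). Every hCAR-TG value lay above every wild type value. The growth factor gene Igf2 was also higher (0.69 ± 0.12).

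Genes that responded in opposite directions numbered 347 (2.83%), of which 245 rose with TCPOBOP and fell with CITCO and 102 did the reverse. The 245 are out of 1083 falling with CITCO, while 24.6% of all tested genes rose with TCPOBOP. The 102 are out of 1016 rising with CITCO, while 11.3% of all tested genes fell with TCPOBOP. Both counts are near those shares, so the size of this class is not read as a result. The count of 347 was 150 without the 3 acinar libraries, 165 without replicate 2 of CITCO and 166 without replicate 3 of CITCO. Got1, the cytosolic aspartate aminotransferase, was at 54.4, 54.05 and 60.1 FPKM with corn oil and 24.1, 27.05 and 22.5 with TCPOBOP in wild type. In hCAR-TG it was at 45.8, 63.6 and 35.5 FPKM with corn oil and 126, 127 and 130.2 with CITCO. The TCPOBOP libraries were the lowest and the CITCO libraries the highest of the 12, with changes of -1.16 ± 0.17 and 1.43 ± 0.17 (2.59 ± 0.24, limma adjusted p = 1.33e-07). Rdh16, a retinol dehydrogenase, went from 15.6, 16.2 and 13.1 to 4.38, 5.12 and 4.06 FPKM with TCPOBOP and from 20.8, 22.6 and 17.95 to 39.6, 39.4 and 40.7 FPKM with CITCO (2.47 ± 0.21). Their vehicle levels were not called different between genotypes (-0.25 ± 0.17 and 0.42 ± 0.15). The reverse pattern included Fam171a1, at 19.4, 20.9 and 18.1 FPKM with TCPOBOP and 2.64 to 3.77 in the 9 other libraries (-2.39 ± 0.10), and Cym, which encodes chymosin (-2.40 ± 0.13).

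Other genes with opposite calls had high or widely spread values in the hCAR-TG vehicle libraries. Hamp, the iron hormone hepcidin, was at 2.39, 3.24 and 4.32 FPKM with corn oil and 40.2, 66.6 and 42.2 with TCPOBOP in wild type, and at 277, 23.7 and 6.28 with corn oil and 9.48, 2.76 and 3.19 with CITCO in hCAR-TG. The hCAR-TG corn oil values span a wide range that overlaps the CITCO range, and the response difference of -6.29 ± 1.22 (limma adjusted p = 0.00101) carried the largest SE of the 8 genes named for opposite responses. Tff3, a mucosal trefoil peptide on the intestinal list, was at 18.95, 28.3 and 92.8 FPKM in hCAR-TG with corn oil and 7.01, 9.99 and 9.22 with CITCO (-3.94 ± 0.58). Car1, the carbonic anhydrase of red cells and colon, was at 0.751, 1.17 and 2.75 and 3.82, 2.83 and 2.73 FPKM in wild type and 14.3, 25.5 and 40.6 and 6.05, 6.08 and 5.51 in hCAR-TG (-2.66 ± 0.38). For Tff3 and Car1 the corn oil libraries of hCAR-TG were above all wild type corn oil libraries, beside the intestinal and erythroid sums given above.

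Further genes with large positive response differences included enzymes of one-carbon and nitrogen metabolism, named for their size alone. Bhmt, which remethylates homocysteine, was at 952, 1169.8 and 1187 FPKM with corn oil and 512, 434 and 481 with TCPOBOP in wild type. The hCAR-TG values were 985, 1012 and 879 FPKM with corn oil and 2057, 2190.3 and 2200.2 with CITCO, so TCPOBOP and CITCO values lay below and above all vehicle values (2.37 ± 0.22, limma adjusted p = 1.49e-07). Etnppl, an ethanolamine phosphate lyase (2.32 ± 0.28), and the urea cycle gene Ass1 (1.58 ± 0.29) were higher too. Among the largest negative ones, Pnliprp1, a lipase-related gene best known from pancreas, was at 1356, 1563 and 1689.8 FPKM in all 3 TCPOBOP libraries and 84.9, 33.5 and 37.5 with CITCO, from 32.2, 65.2 and 26.3 and 24.4, 11.5 and 8.93 with corn oil (-3.56 ± 0.49). The acinar library held the middle Pnliprp1 value with TCPOBOP (1563 FPKM) and the highest with wild type corn oil (65.2) and CITCO (84.9). Without replicate 1 of CITCO the response difference was -3.97. The part of acinar transcripts in this gene was not tested. Ggt1, which cleaves extracellular glutathione, was at 13.5, 14.8 and 15.8 FPKM with TCPOBOP and 1.87, 1.80 and 2.12 with CITCO (-3.12 ± 0.18), and Gdf15, a stress hormone, differed by -3.39 ± 0.45. Rgs16, a brake on G protein signals, was low with CITCO alone, at 1.07, 2.36 and 0.921 FPKM against 10.7 to 34.2 in the 9 other libraries (-3.17 ± 0.67).

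Some genes responded alike. Called in the same direction in both responses were 645 genes, 402 up (13.3% of the TCPOBOP rises and 39.6% of the CITCO rises) and 243 down (17.5% and 22.4% of the falls). In 530 genes, 304 rising and 226 falling, the 95% interval of the response difference lay within 1 of 0 on the log2 scale, and 131 of the 530 still differed by the test. This count was 320 without the 3 acinar libraries, 343 without replicate 2 of CITCO and 335 without replicate 3 of CITCO. Upp2, a uridine phosphorylase, was at 8.85, 10.7 and 10.3 FPKM with corn oil and 58.4, 78.2 and 63.9 with TCPOBOP in wild type, and at 7.65, 6.54 and 6.80 with corn oil and 41.7, 47.7 and 50.99 with CITCO in hCAR-TG. Its rises of 2.63 ± 0.21 and 2.58 ± 0.21 differed by -0.05 ± 0.29 (limma adjusted p = 0.91, 95% interval -0.66 to 0.56). Ugt1a9, a phenol glucuronidating enzyme (-0.29 ± 0.26, 95% interval -0.82 to 0.25), and Sult2a1, a hydroxysteroid and bile acid sulfotransferase (-0.14 ± 0.25, 95% interval -0.67 to 0.39), were also in this class. The induced level of Sult2a1 nevertheless differed, at 618, 612 and 670.2 FPKM with TCPOBOP and 287, 294 and 329 with CITCO, as did its vehicle level (-0.92 ± 0.18).

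Markers of liver and blood cell types were called to differing extents, against 22.2% lower and 11.5% higher over all genes. Of 15 hepatocyte markers 6 were higher and 2 lower. When libraries were left out, the higher count ranged from 3 (without replicate 2 of TCPOBOP) to 6 and the lower count from 1 to 3. In bulk liver, fewer cells of a type and less RNA per cell cannot be told apart. Of 18 endothelial markers 10 were lower and 1 higher, and their sum was 256 to 276 FPKM with CITCO against 312 to 350 in the other 3 groups, without overlap. Kupffer cell markers counted 7 lower of 17, or 4 without replicate 3 of TCPOBOP or replicate 3 of CITCO, and stellate cell markers 8 higher and 2 lower of 18 (4 higher without the 3 acinar libraries). The stellate sum was 335 to 403 FPKM with TCPOBOP and 375 to 448 in the other groups, which overlap. Of 19 erythroid markers 8 were lower. This count was 13 without replicate 3 of wild type corn oil, 3 or 4 in 7 other fits that left out 1 library, among them replicate 3 of the hCAR-TG corn oil group (3), and 1 without the 3 acinar libraries. Of 15 neutrophil markers 4 were lower, near the share of 22.2% over all genes. Without replicate 3 of wild type corn oil 9 were, without replicate 1 of hCAR-TG corn oil 7, and 2 without replicate 1 of wild type corn oil, replicate 3 of CITCO or replicate 3 of hCAR-TG corn oil. Acute phase genes counted 7 lower and 2 higher of 26, against 22.2% and 11.5% over all genes, and 11 lower without replicate 3 of hCAR-TG corn oil. The serum proteins Orm3 (-1.21 ± 0.36) and Crp (-0.84 ± 0.11) were lower. Clock genes counted 4 higher and 1 lower of 17, or 2 and 0 without the 3 acinar libraries and 2 higher without replicate 2 of TCPOBOP, with Hlf, a clock output factor, at 1.12 ± 0.16 and Nfil3, its repressing counterpart, at -0.98 ± 0.25. Nuclear-encoded respiratory chain genes counted 4 higher and 0 lower of 29, close to the share of higher calls over all genes, with 2 higher without replicate 1 of TCPOBOP and 1 without the 3 acinar libraries.

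The same comparison at day 60, from 12 other libraries, gave 4154 called genes (33.8%), 1200 higher (9.77%) and 2954 lower (24.1%). Lower at both ages were 1395 genes, 51.1% of the newborn and 47.2% of the adult lower calls, and higher at both were 351 (24.8% and 29.2%). Higher in newborns and lower in adults were 82 genes, and the reverse held for 98. The difference between the ages was itself called in 2178 genes (17.7%), 965 with a higher adult value (7.86%) and 1213 with a lower (9.88%). Without replicate 3 of the newborn hCAR-TG corn oil group this count was 2383, and without the 3 acinar libraries 1414.

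Cell cycle genes differed widely between the ages. All 44 were called lower at day 60 (median -1.93) against 14 at day 5 (median -0.35), and in 41 the age difference was called. Of 21 lipogenic genes 14 were lower at day 60 and 4 at day 5, and 15 age differences were called lower (median -1.14). Cyp2c genes went the other way, with 10 of 14 age differences called higher. NRF2 targets were lower in 14 of 20 at each age, with 2 age differences called higher and 5 lower. Pericentral Wnt targets were higher in 14 of 19 at day 60 and 11 at day 5, with 5 age differences called higher and 4 lower.

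**Figure D5:**
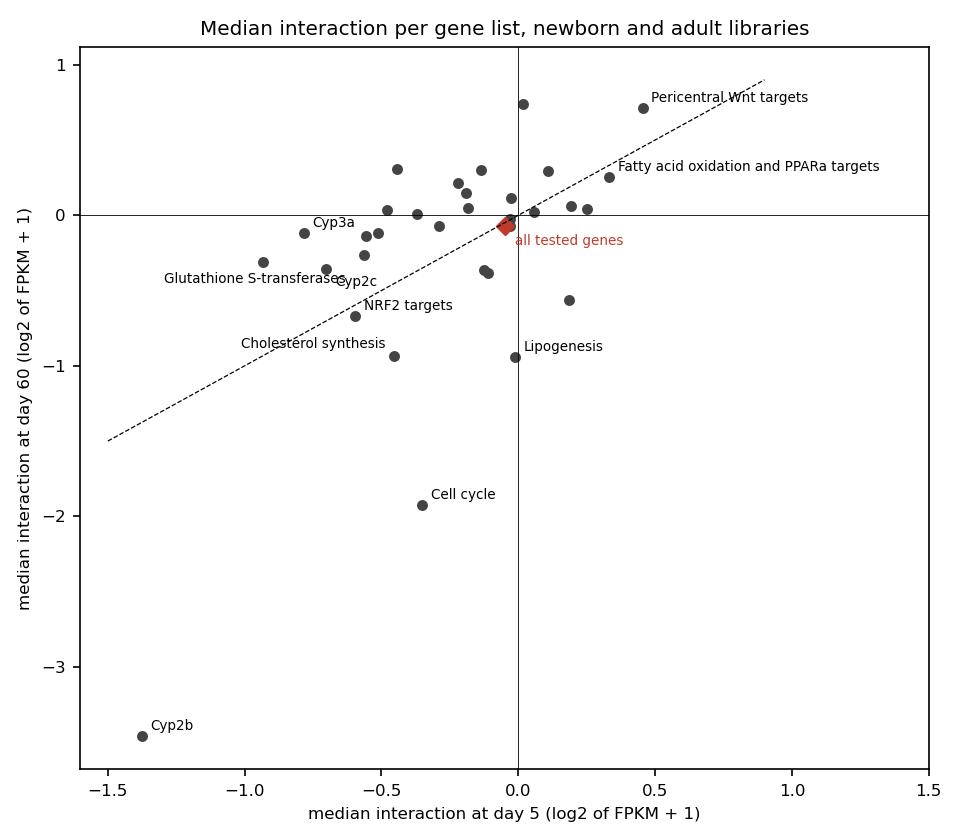
Median response difference (log2 of FPKM + 1) of each of 32 gene lists (points) at day 5 (horizontal) and day 60 (vertical), with the dashed line of equal medians and a red diamond for all tested genes. Cyp2b and cell cycle genes lie well below the line, and NRF2 and Wnt target lists lie near it.

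The leading CAR readout itself differed between the ages. At day 60 Cyp2b10 was at 9.31, 11.9 and 17.4 FPKM with corn oil and 2760.0, 2625 and 2404 with TCPOBOP in wild type. In adult hCAR-TG it was at 241, 208 and 227 FPKM with corn oil and 1223, 1197 and 1259 with CITCO. The adult hCAR-TG vehicle libraries were thus far above every newborn vehicle library, and the adult response difference was -5.15 ± 0.36 against -1.37 ± 0.36 in newborns (age difference -3.77 ± 0.51, limma adjusted p = 5.19e-05). Cyp2a5, whose CITCO change was not called in newborns, was at 155, 128 and 153 FPKM with corn oil and 429, 420.1 and 403 with CITCO in adult hCAR-TG, without overlap, and its response difference was -0.98 ± 0.31 (3.32 ± 0.44, limma adjusted p = 3.82e-05).

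A number at the end of the read file names, whose meaning is not stated, was 3 in wild type corn oil, 4 in TCPOBOP, 4 or 5 in hCAR-TG corn oil and 5 in CITCO. The response difference cannot be told apart from whatever that number stands for. The same holds for the TCPOBOP response, the difference between the corn oil groups and the age difference. The CITCO response can be fitted with it. At day 5 that fit rests on replicate 3 of hCAR-TG corn oil, the library that stood apart, since it alone of its group carries the number 5.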

How the data were processed

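Liver RNA of 24 libraries was sequenced from stranded TruSeq libraries, per the labels' protocols, and 12 newborn libraries form the comparison. The values used are FPKM as the authors deposited them, 1 table per sample. The build was mm10, per the submitters' processing notes, while aligner, quantifier and annotation are not given in the sources used here. Entries sharing a symbol were summed (279 symbols), except 27 date-like entries, and 5 genes with a failed estimate (Ceacam1, Gm2083, Mif4gd, Mup16 and Tle1) were left out.

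log2(FPKM + 1) values of all 24 libraries were fitted with limma 3.58.1 (lmFit, eBayes with trend and robust, 8 groups, 16 residual degrees of freedom) in R 4.3.3. Tests were two-sided, with Benjamini-Hochberg adjustment over 12282 genes and calls at adjusted p under 0.05. The pseudocount shrinks changes of genes near 1 FPKM. At most 0.326% of tested genes had identical values in 2 replicates (12 pairs). The fit was tested on simulated data first.

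The comparison, its members and all 45 gene lists were chosen with earlier results of these data known, so lists carry no test. Genes were named by rule: Nr1i3, Nr1i2 and Cyp2b10, the 15 largest differences each way, up to 4 called members per list, 8 opposite, 8 alike and 6 age differences each way. Other list members were picked after their values were seen, to describe a list. Promoter windows are RefSeq's for GRCm38.p6 (mm10). The alternatives changed the pseudocount (0.1), the scaling (median of ratios), the filter (none, or 5 FPKM), the prior (constant) or the call (2-fold as well). Others added a replicate block or array weights, fitted only the libraries compared or left out each newborn library, and 1, chosen after seeing the data, left out the 3 acinar libraries.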

Additional observations from a re-analysis of the deposited data

Results flagged for a closer look

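The response difference itself differed between day 60 and day 5 in 2178 genes by the test of the adult minus the newborn value (limma adjusted p under 0.05). The 6 largest named in each direction follow, as adult minus newborn differences on the log2 scale. Higher in adults were Hamp at 7.70, Hamp2, a hepcidin copy, at 5.15, Hsd3b5, a steroid dehydrogenase of male liver, at 4.38, Car1 at 3.50, Cyp2a5 at 3.32 and Keg1, a glycine acyltransferase relative, at 3.28. Lower in adults were Sult1e1 at -4.05, Cyp2b10 at -3.77, the sulfotransferase gene Sult3a1 at -3.69, Cdkn1a at -3.66, Cyp2b9 at -3.52 and the transferrin receptor gene Tfrc at -3.44.

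Adult levels of 3 of these genes are as follows. Hsd3b5 was at 163, 111 and 75.1 FPKM with corn oil and 0.240, 0.259 and 1.78 with TCPOBOP in adult wild type. In adult hCAR-TG it was at 117, 127 and 137 FPKM with corn oil and 68.5, 90.04 and 78.4 with CITCO. Sult1e1 was at 79.9, 48.7 and 35.9 FPKM with TCPOBOP and at most 1.68 FPKM in the 9 other adult libraries. Adult Hamp was at 1839, 833 and 846 FPKM with corn oil and 227, 172 and 186 with TCPOBOP in wild type. At day 5 the order was the opposite, at 2.39, 3.24 and 4.32 FPKM with corn oil and 40.2, 66.6 and 42.2 with TCPOBOP, and the hCAR-TG corn oil libraries ranged over 277, 23.7 and 6.28 FPKM. No group of 4 or more samples was available for a check of outlying samples, since every group held 3.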

How the results depend on the processing

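No call of the named genes reversed in any alternative. Requiring a 2-fold change left 378 response differences (77 higher, 301 lower), 391 TCPOBOP and 116 CITCO calls, 665 age differences, 4 opposite and 17 alike genes. Array weights, which gave replicate 3 of the hCAR-TG corn oil group a weight of 0.0777, raised these to 6352 (2142 higher, 4210 lower), 6665, 5259, 4205, 1275 and 1634. Fitting the compared libraries alone gave 863 higher calls and 596 CITCO calls, and a filter of 5 FPKM gave 892 higher calls. Leaving out the 3 acinar libraries gave 2532 calls (725 higher, 1807 lower), 1414 age differences, 150 opposite and 320 alike genes, and 174 of 193 named genes kept their side of the threshold. Leaving out each newborn library in turn gave 3351 to 4624 calls, 1054 to 1823 higher and 2207 to 2894 lower, 1147 to 2633 CITCO calls, 165 to 414 opposite and 335 to 595 alike genes. For these the cause was not tested, beyond the fewer samples or stricter rule. The other alternatives kept every count of these kinds within 1.5 times. A replicate block gave 4007 calls, 3945 of them shared. Deviations of same-numbered libraries correlated at -0.333 to 0.311 and 7 of 18 exceeded 0.1. Differently numbered libraries were not compared, so whether the replicate numbers pair the samples is not settled.

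Limits: receptor and ligand change together, doses are not given, and the corn oil libraries of hCAR-TG hold transcripts of other tissues. The read-file number cannot be told apart from the comparison, the TCPOBOP response, the difference between the corn oil groups or the age difference. Low genes are limited by an unknown depth.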
